A study of Mus musculus with 27 samples.

Results

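The genes followed here were 8 genes of arginine, nitric oxide and itaconate metabolism in mouse bone marrow-derived macrophages (BMDM), namely Slc7a2, Nos2, Gch1, Arg1, Arg2, Ass1, Asl and Irg1, the older symbol of Acod1. They were chosen by name, as the probes whose gene name on the array equals one of these symbols. No measured value entered this rule, but earlier results of these data were known when it was set. The array carried 10 such probes among 55681 non-control probes, and these 8 gene names among 24845. Ass1 and Gch1 had 2 probes each and the other members 1. Values of Ass1 and Gch1 are those of 1 main probe, and the other probe is given where its call differed.

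BMDM were differentiated for 7 days from the marrow of mice 6 to 8 weeks old and hybridised to 1-colour Agilent arrays in 9 groups of 3. The naïve group was untreated. Each acute group received 1 ligand of a Toll-like receptor for 4 h: lipopolysaccharide (LPS) at 100 ng/ml, the synthetic lipopeptide Pam3CSK4 at 100 ng/ml, Poly(I:C), a mimic of double-stranded RNA, at 10 µg/ml, or CpG DNA at 100 µM by the labels, where the study's methods give another concentration. Each re-stimulated group was exposed to its ligand for 24 h, washed and exposed for 4 h to the same ligand again. The authors' deposited log2 values exist for 25 of the 27 arrays, so that the LPS re-stimulated and the Pam3CSK4 acute groups have 2 arrays and the other groups 3. The study's methods give each replicate as coming from its own mouse, and elsewhere give each culture as grown from marrow of 3 mice combined, with a separate pool per replicate. Under either statement p-values measure the spread between these cultures, and the labels name no animal.

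In macrophages, arginine enters the cell through cationic amino acid transporters and is then divided between rival enzymes. Nitric oxide synthase turns it into nitric oxide and citrulline with the cofactor tetrahydrobiopterin, arginases split it into ornithine and urea, and argininosuccinate synthase and lyase rebuild it from citrulline. Itaconate, made from a citric acid cycle intermediate, is a metabolite of activated macrophages with antimicrobial and regulatory effects.

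The contrast between the arginases rested on 1 probe each, and these probes are shown because the enzymes are related and a shared stretch could mix their signals. The Arg1 probe lies at chr10:24636194-24636253 on the minus strand and the Arg2 probe at chr12:80252972-80253031 on the plus strand (mm9), and each had 1 reading frame free of stop codons. Capitals mark the longest run of letters that the probes share.
Arg1: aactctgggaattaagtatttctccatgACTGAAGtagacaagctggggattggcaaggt
Arg2: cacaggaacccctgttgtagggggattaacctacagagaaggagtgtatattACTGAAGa
The shared run was 7 bases of the 60, and 17 of 60 positions held the same base when the probes were set side by side without gaps.

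The table of RefSeq promoters (GRCm38.p6) held 3 of the 8 members. The 250 bases before the start of Irg1 (Acod1) and of Gch1 are shown because these genes were the pair of members whose group means ran most alike, as given further on. Capitals mark the matches found.
Acod1, chr14:103046762-103047011, plus strand: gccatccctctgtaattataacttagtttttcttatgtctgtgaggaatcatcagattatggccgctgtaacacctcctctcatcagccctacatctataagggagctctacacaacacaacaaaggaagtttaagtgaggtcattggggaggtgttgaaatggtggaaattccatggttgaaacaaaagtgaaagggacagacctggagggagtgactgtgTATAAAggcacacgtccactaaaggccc
Gch1, chr14:47189414-47189663, minus strand: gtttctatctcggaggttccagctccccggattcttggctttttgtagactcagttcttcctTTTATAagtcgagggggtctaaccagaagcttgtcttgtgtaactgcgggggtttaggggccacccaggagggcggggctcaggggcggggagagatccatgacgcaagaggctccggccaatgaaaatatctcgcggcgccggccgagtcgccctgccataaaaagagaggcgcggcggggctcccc
Acod1 held the TATA box (TATAAA) from 28 to 23 bases before its start, and Gch1 held it on the other strand from 188 to 183 bases before its start. That motif was found in 12.4% of 32851 promoters of this length, searched on both strands. The other motifs searched were NF-kB (GGGANTTTC, 0.941% of promoters), ISRE (GAAANNGAA, 7.13%), GAS (TTCNNNGAA, 7.02%), AP-1 (TGANTCA, 6.75%), CRE (TGACGTCA, 1.55%) and C/EBP (TTGCNNAA, 9.56%), where N is any base. Neither promoter held these letters in this window, and the promoter of Ass1 (chr2:31470020-31470269, plus strand) held no match to any of the 7 motifs.

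Before the results, some arrays stood apart. The share of spots well above background was 43.1 to 55% on 24 arrays, 74.9% on naïve replicate 3, and 92.4% and 99.9% on the arrays without deposited values. Replicates 1, 2 and 3 of every group except LPS acute lay on slides 4, 5 and 6, while LPS acute lay on slides 1, 2 and 3. The scan date and the grid name of the array design also differed between LPS acute and all other arrays. Slide, scan date and grid name therefore cannot be told apart from LPS acute, and leaving out 1 array does not remove these differences. All 8 macrophage markers were well above background on every array. Of the 8 markers of neutrophils and their precursors, Ltf was between 8.92 and 13.05 on the 15 arrays of slides 4 and 5, but between 2.09 and 4.41, with 0 of 7 arrays above background, on slide 6 and between 2.51 and 3.29 on LPS acute. The signals of the 8 markers were summed on the linear scale, and the log2 of that sum is given here and below. It ranged from 11.71 to 12.31 on LPS acute, from 15.89 to 15.90 on LPS re-stimulated and from 12.35 to 16.75 on naïve BMDM. Among acute arrays it ranged from 12.65 to 18.10 on CpG, from 12.79 to 17.41 on Pam3CSK4 and from 12.47 to 17.77 on Poly(I:C). It ranged from 15.02 to 16.32 on CpG re-stimulated, from 15.76 to 16.06 on Pam3CSK4 re-stimulated and from 12.88 to 17.07 on Poly(I:C) re-stimulated. Ly6g, Ngp, Ltf and S100a9 were above background on no LPS acute array. On slide 6, unlike Ltf, Ly6g was above background on 1 array, Ngp on 2 and S100a9 on all 7. S100a9 was 4.57 to 8.08 there and 14.25 to 17.57 on slides 4 and 5. In bulk RNA, a change in the share of a cell type and a change in RNA per cell cannot be told apart.

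The first question was which members rose on first contact with a ligand. A call required an adjusted p under 0.05 by limma over all probes tested and a change of at least 1.5-fold, and only probes that cleared background clearly on 2 or more arrays of 1 of the groups compared were tested. Arg1 was not tested against naïve BMDM in any acute group, and the other 7 members were. LPS raised 5 of these 7 (Nos2, Irg1, Slc7a2, Gch1 and Ass1), where 26.5% of all tested probes were called and 13.2% were called higher. CpG raised the same 5, against 5.72% of probes called and 3.09% called higher. Poly(I:C) raised 3 (Nos2, Irg1 and Gch1), against 6.03% called and 3.8% called higher. Pam3CSK4 raised 0 of 7 by limma, with 4 of 7 at an unadjusted p under 0.05, and 0% of all probes were called in either direction, 0% higher, with 2 arrays in that group. No member was called lower. All 5 LPS calls and the Nos2 call of Poly(I:C) held with each array left out in turn, and the other 7 of these 13 calls were lost without at least 1 array, with adjusted p up to 0.169. Leaving out naïve replicate 1, naïve replicate 2 or CpG acute replicate 1 left 8, 6 and 8 calls.

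The next question was which members differed between acute and re-stimulated BMDM. LPS re-stimulation raised 4 of 8 members (Arg1, Arg2, Ass1 and Slc7a2), where 34.2% of probes were called and 17.2% called higher. CpG re-stimulation raised 2 of 8 (Arg1 and Ass1), against 3.56% called and 1.85% called higher. Poly(I:C) re-stimulation raised 1 of 7 (Ass1), against 4.93% called and 2.31% called higher. Pam3CSK4 re-stimulation raised 0 of 8 by limma, with 2 of 8 at an unadjusted p under 0.05, and 0% of probes were called. No member fell by this test. Arg1 was well above background on no acute array, so it entered the LPS, CpG and Pam3CSK4 tests through the re-stimulated group alone. A fall could hardly have been called for it. The 4 LPS calls held with each array left out, with adjusted p up to 0.0179, and the other 3 did not, with adjusted p up to 0.154. The acute and re-stimulated LPS arrays lay on different slides.

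Set against naïve BMDM, the members had 22 calls over the 4 ligands in re-stimulated cells and 13 in acute cells. Arg1 was tested in none of the acute comparisons. It is among the 22 calls for LPS, CpG and Pam3CSK4, where it passed the background filter through the re-stimulated group alone. LPS re-stimulated BMDM had 5 of 8 higher (5.66% of probes called, 3.27% higher), CpG 7 of 8 (13.1%, 6.65% higher), Pam3CSK4 4 of 8 (5.36%, 2.61% higher) and Poly(I:C) 6 of 7 (9.03%, 4.79% higher). These comparisons share the naïve arrays, and the difference between the counts was not tested. With 1 array left out in turn, 2 of the 22 calls held throughout, Arg1 and Ass1 after CpG, and the others reached adjusted p of 0.0565 to 0.274. All 5 LPS calls were lost without either LPS re-stimulated array, a fit in which the 1 array left is assumed to vary like the naïve group, and 8 of the 22 calls were left without naïve replicate 1 or without naïve replicate 2.

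**Figure D1:**
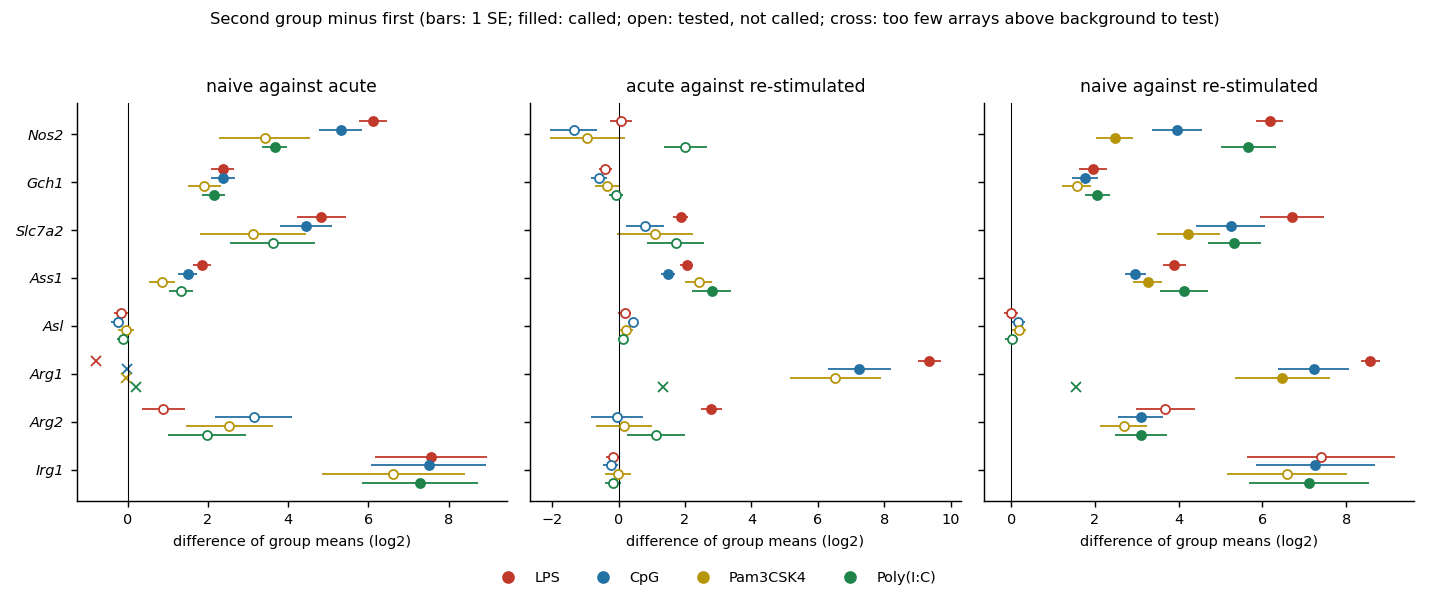
Difference of group means (x axis, log2) of each member, with bars of 1 standard error (limma, main probe), in the comparisons of naïve, acute and re-stimulated BMDM, coloured by ligand. Filled circles were called, open circles were tested and not called, and crosses were not tested. Arg1 rose between acute and re-stimulated BMDM, by 9.36 for LPS, and Irg1 by 7.57 between naïve and LPS acute BMDM.

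Slc7a2, the cationic amino acid transporter that brings arginine into activated macrophages, was low in naïve BMDM, at log2 levels of 5.87, 5.20 and 3.39. It was 9.44, 9.81 and 9.69 in LPS acute and 9.67, 9.15 and 8.98 in CpG acute BMDM, above every naïve array. LPS raised it by 4.83 ± 0.61 on the log2 scale (± SE here and below, adjusted p = 0.00349, limma), a 28.4-fold change, and CpG by 4.45 ± 0.64 (adjusted p = 0.0233). The acute arrays of the remaining ligands were uneven. Poly(I:C) acute gave 10.04, 8.80 and 6.45 and Pam3CSK4 acute 9.81 and 6.08, so replicate 3 was the low array of both groups, as it was among the naïve arrays. The changes of 3.61 ± 1.06 (adjusted p = 0.114) and 3.13 ± 1.32 (adjusted p = 0.431) did not pass. With the replicate number as a block the adjusted p for Poly(I:C) was 0.0225. On these naïve and acute arrays of slide 6 the summed neutrophil markers were also lowest in their groups, at 12.35 to 12.79, and their part in this was not tested.

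After re-stimulation Slc7a2 stood higher still with LPS, at 11.70 and 11.34, above all 3 acute arrays. The rise over acute was 1.88 ± 0.23 (adjusted p = 0.00242), 3.67-fold. The other re-stimulated groups overlapped their acute groups, at 10.00, 10.49 and 9.97 for Poly(I:C), 9.24, 9.57 and 11.38 for CpG and 9.55, 7.96 and 9.65 for Pam3CSK4, and their changes of 1.72, 0.79 and 1.11 did not pass. All 4 re-stimulated groups were above naïve BMDM, by 6.70 for LPS (adjusted p = 0.0243), 5.33 for Poly(I:C) (0.0112), 5.24 for CpG (0.0168, 0.0557 with the replicate block) and 4.23 for Pam3CSK4 (0.039, 0.0754 with the block). No 2 neighbours in the order of the 9 group means, from LPS re-stimulated down to naïve, differed by the test.

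**Figure D2:**
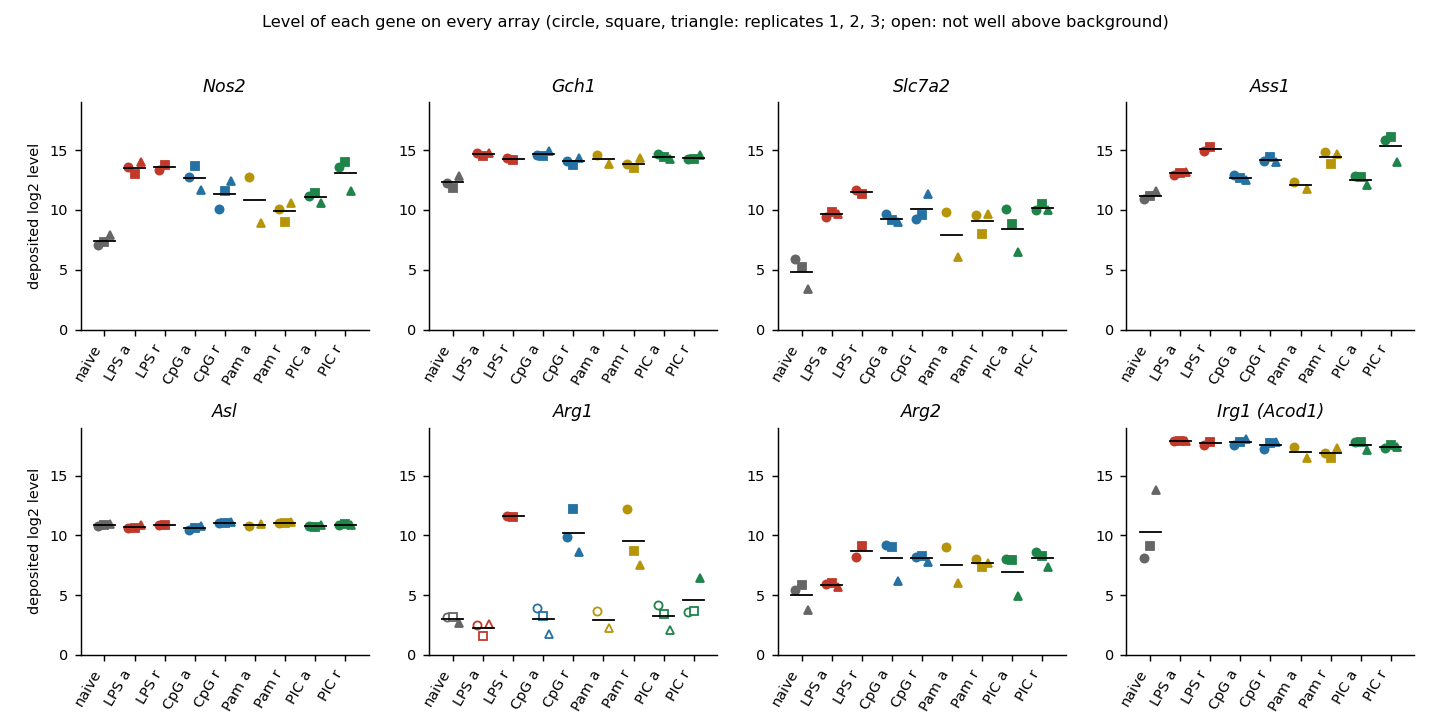
Deposited log2 level (y axis) of each member on each of the 25 arrays, by group (a for acute, r for re-stimulated, Pam for Pam3CSK4, PIC for Poly(I:C)), with circles, squares and triangles for replicates 1, 2 and 3, open where not well above background, and a bar at the group mean. Arg1 lay between 1.55 and 4.18 on naïve and acute arrays and between 7.56 and 12.19 after LPS, CpG and Pam3CSK4 re-stimulation.

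Nos2, the inducible nitric oxide synthase, was 7.05, 7.28 and 7.88 in naïve BMDM. It rose to 13.58, 12.99 and 13.98 with acute LPS, to 12.73, 13.69 and 11.71 with CpG and to 11.13, 11.46 and 10.60 with Poly(I:C), and every array of these groups lay above the naïve ones. The changes were 6.11 ± 0.34 for LPS (adjusted p = 0.000378, 69.3-fold), 5.31 ± 0.53 for CpG (adjusted p = 0.00977, 39.6-fold) and 3.66 ± 0.32 for Poly(I:C) (adjusted p = 0.00562, 12.6-fold). Pam3CSK4 acute arrays were far apart, at 12.72 and 8.92, and the change of 3.42 ± 1.14 did not pass (adjusted p = 0.353). Acute LPS stood above acute Poly(I:C) by 2.45 ± 0.33 (adjusted p = 0.0155), a call that was lost without LPS acute replicate 1 (0.0644).

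Re-stimulation changed Nos2 with none of the ligands by the test. LPS re-stimulated BMDM gave 13.37 and 13.78, inside the acute range, a difference of 0.06 ± 0.33 (adjusted p = 0.906). CpG gave 10.08, 11.59 and 12.39 and Pam3CSK4 10.07, 9.01 and 10.55, both overlapping their acute arrays, with differences of -1.36 ± 0.70 (adjusted p = 0.316) and -0.94 ± 1.12 (adjusted p = 0.767). Poly(I:C) gave 13.58, 14.02 and 11.59, each above the 3 acute arrays, a difference of 2.00 ± 0.64 that missed the threshold (adjusted p = 0.118). Without the arrays of slide 6, an alternative added after the data were seen, that difference was 2.51 and was called (adjusted p = 0.0101), as it was without Poly(I:C) re-stimulated replicate 3 alone (0.0128). Without slide 6 the differences for CpG and Pam3CSK4 were -2.38 (adjusted p = 0.0875) and -3.18 (0.110), the latter with 1 acute array assumed to vary like the re-stimulated group, and neither was called. None of the 6 differences between ligands in this change passed (for CpG against Poly(I:C) 3.36 ± 1.14, adjusted p = 0.283).

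Nos2 in every re-stimulated group stayed above naïve BMDM. The rise was 6.17 for LPS (adjusted p = 0.00849), 5.66 for Poly(I:C) (0.0104), 3.95 for CpG (0.016) and 2.47 for Pam3CSK4 (0.039, 0.0607 with the replicate block). LPS re-stimulated cells exceeded Pam3CSK4 re-stimulated cells by 3.70 ± 0.47 (adjusted p = 0.0414), 13.0-fold, a call that was lost without Pam3CSK4 replicate 1 or 2 and without either LPS array, where the 1 left is assumed to vary like the Pam3CSK4 group (adjusted p up to 0.431). In the order of group means, LPS re-stimulated, LPS acute, Poly(I:C) re-stimulated, CpG acute, CpG re-stimulated, Poly(I:C) acute, Pam3CSK4 acute, Pam3CSK4 re-stimulated and naïve, the last step was the only one between neighbours to pass.

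Gch1 encodes GTP cyclohydrolase 1, the first enzyme on the route to tetrahydrobiopterin. Its naïve arrays gave 12.26, 11.85 and 12.84, and the acute arrays of all ligands lay between 13.84 and 14.95, above them. The rise was 2.37 ± 0.29 for LPS (adjusted p = 0.003, 5.16-fold), 2.36 ± 0.30 for CpG (0.0177) and 2.14 ± 0.29 for Poly(I:C) (0.0176, 0.0504 with the replicate block), while that of 1.91 ± 0.41 for Pam3CSK4 did not pass (0.288). Re-stimulated arrays lay between 13.48 and 14.61, and the differences from acute, -0.59 for CpG, -0.40 for LPS, -0.35 for Pam3CSK4 and -0.08 for Poly(I:C), did not pass. The other probe gave -0.96 ± 0.25 for Poly(I:C) (adjusted p = 0.076). Against naïve BMDM the re-stimulated levels were called higher for LPS (1.96, adjusted p = 0.0447, with 0.0636 on the other probe), CpG (1.77, 0.0216) and Poly(I:C) (2.06, 0.0164), and that of Pam3CSK4 was 1.56 (0.0558).

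Arg1, the cytosolic arginase, was the member with the largest change between acute and re-stimulated cells for LPS, CpG and Pam3CSK4. It was 3.18, 3.14 and 2.72 in naïve BMDM, where only replicate 3 was well above background, and it was well above background on none of the 11 acute arrays, which lay between 1.55 and 4.18. LPS re-stimulated BMDM gave 11.63 and 11.54, CpG 9.87, 12.18 and 8.65, and Pam3CSK4 12.19, 8.72 and 7.56, all far above every naïve and acute array. Poly(I:C) re-stimulated BMDM gave 3.56, 3.69 and 6.43, with only replicate 3 well above background, and overlapped the acute arrays. On the acute arrays Arg1 did not clear background, so folds were taken against a floor. Re-stimulated levels were 596-fold above it for LPS (log2 change of measured means 9.36 ± 0.35, adjusted p = 0.000163) and 129-fold for CpG (7.26 ± 0.96, adjusted p = 0.0245). The fold for Pam3CSK4 was 84.8 (6.53 ± 1.37), which was not called (adjusted p = 0.198). The floor is, on each acute array, the higher of the probe's own signal and the dimmest signal well above background. These folds are no strict lower bounds, since Arg1 was not well above background at up to 4.18 on acute arrays.

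The call for CpG was lost without CpG acute replicate 1 or 2 or CpG re-stimulated replicate 1 or 2 (adjusted p up to 0.0805). Poly(I:C) was not tested by the same rule, and its means differed by 1.34. Against naïve BMDM the rise in Arg1 was 8.57 for LPS (adjusted p = 0.00419), 7.22 for CpG (0.00932) and 6.48 for Pam3CSK4 (0.0375, 0.0646 with the replicate block). Only 1 of 3 naïve arrays measured Arg1 above background, so these are differences of measured means and no exact folds. Neutrophil markers moved with the LPS contrast. Of the 8 markers, 7 were above background on both LPS re-stimulated arrays and 3 on all LPS acute arrays, with Ly6g, Ngp, Ltf and S100a9 on none of the latter. On CpG and Pam3CSK4 re-stimulated replicate 3, Ltf was not above background and Arg1 was, at 8.65 and 7.56. The sum of the 8 markers on these arrays was 15.02 and 15.76, led by S100a8. On slide 6 S100a9 was at most 8.08, with Ly6g above background on 1 of 7 arrays and Ngp on 2, so the sum does not weigh the markers alike. On the naïve, CpG acute and Poly(I:C) acute arrays of slides 4 and 5, where Ltf was at least 8.92, Arg1 was not above background. The part of these cells in the levels of Arg1 was not tested.

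Arg1 after Poly(I:C) was set against the other ligands directly. LPS re-stimulated BMDM exceeded Poly(I:C) re-stimulated BMDM by 7.02 ± 0.91 on the log2 scale (adjusted p = 0.045). Arg1 was above background on 1 of the 3 Poly(I:C) arrays, so this is a difference of measured means and no exact fold. The call was lost without Poly(I:C) replicate 1 or 2 and without either LPS array, where the 1 left is assumed to vary like the Poly(I:C) group (adjusted p up to 0.369). The differences of 5.67 for CpG (adjusted p = 0.0553) and 4.93 for Pam3CSK4 (0.0973) did not pass, although the arrays did not overlap. Without Poly(I:C) re-stimulated replicate 3, the array on which Arg1 was 6.43, both passed (0.0107 and 0.0405). The change on re-stimulation itself differed between the ligands, at -8.02 ± 1.56 as Poly(I:C) minus LPS (adjusted p = 0.0111), the 1 call of this kind among the members over the 6 pairs of ligands. Its size is not exact, since no acute array of either ligand measured Arg1 above background. It ran from -9.54 to -5.27 over the alternatives, with adjusted p from 0.000899 to 0.119, and was lost without LPS re-stimulated replicate 2 (0.0597) and with all 27 arrays. Poly(I:C) minus CpG gave -5.92 (adjusted p = 0.159) and Poly(I:C) minus Pam3CSK4 -5.19 (0.185), and both passed without Poly(I:C) re-stimulated replicate 3 (0.0168 and 0.0353).

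**Figure D3:**
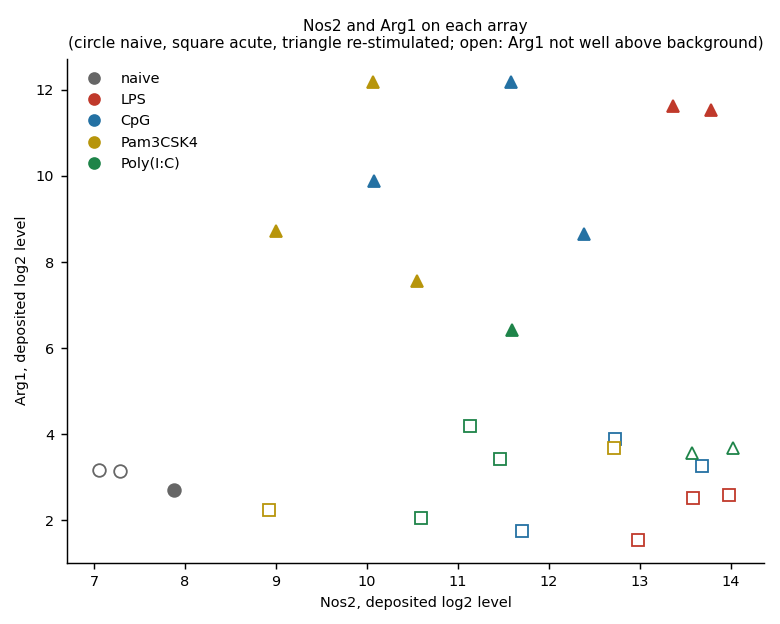
Deposited log2 level of Nos2 (x axis) against that of Arg1 (y axis) on each of the 25 arrays, coloured by ligand, with circles for naïve, squares for acute and triangles for re-stimulated BMDM, open where Arg1 was not well above background. LPS re-stimulated arrays combined Nos2 of 13.37 and 13.78 with Arg1 of 11.63 and 11.54, while Poly(I:C) re-stimulated arrays combined Nos2 of 11.59 to 14.02 with Arg1 of 3.56 to 6.43.

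The plot of Nos2 against Arg1 sets these enzymes, which use the same substrate, side by side. Over the 9 group means Pearson's r was 0.121, a description with no test, and the points share the normalisation of the arrays. Acute arrays held Nos2 of 8.92 to 13.98 with Arg1 not well above background. LPS re-stimulated arrays held high levels of both. CpG re-stimulated arrays held Nos2 of 10.08 to 12.39 with Arg1 of 8.65 to 12.18. Those of Pam3CSK4 held Nos2 of 9.01 to 10.55 with Arg1 of 7.56 to 12.19.

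Arg2, the mitochondrial arginase, behaved otherwise. It was 5.42, 5.82 and 3.76 in naïve BMDM and 5.95, 6.04 and 5.67 in LPS acute BMDM, a difference of 0.88 ± 0.53 that did not pass (adjusted p = 0.257). CpG acute arrays gave 9.18, 9.04 and 6.19, Pam3CSK4 acute 9.01 and 6.05, and Poly(I:C) acute 8.05, 7.92 and 4.96, so replicate 3 was the low array of each. Their changes of 3.13 ± 0.95 (adjusted p = 0.118), 2.53 ± 1.08 (0.434) and 1.97 ± 0.98 (0.314) did not pass, and with the replicate block that of CpG did (0.0468). Without slide 6 those of CpG and Poly(I:C) were called, at 3.49 and 2.36, as was that of Pam3CSK4 at 3.39, with 1 array assumed to vary like the naïve group. Among the acute arrays, neutrophil markers were high on those with high Arg2 and low on replicate 3 and on LPS acute. They were also high on naïve replicates 1 and 2, where Arg2 was 5.42 and 5.82, and Ltf was not above background on replicate 3 of the re-stimulated groups, where Arg2 was 7.34 to 7.80. The sum of the 8 markers on those arrays was 12.88 for Poly(I:C), 15.02 for CpG and 15.76 for Pam3CSK4, led by S100a8 for CpG and Pam3CSK4. The part of neutrophil markers in the levels of Arg2 was not tested.

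**Figure D4:**
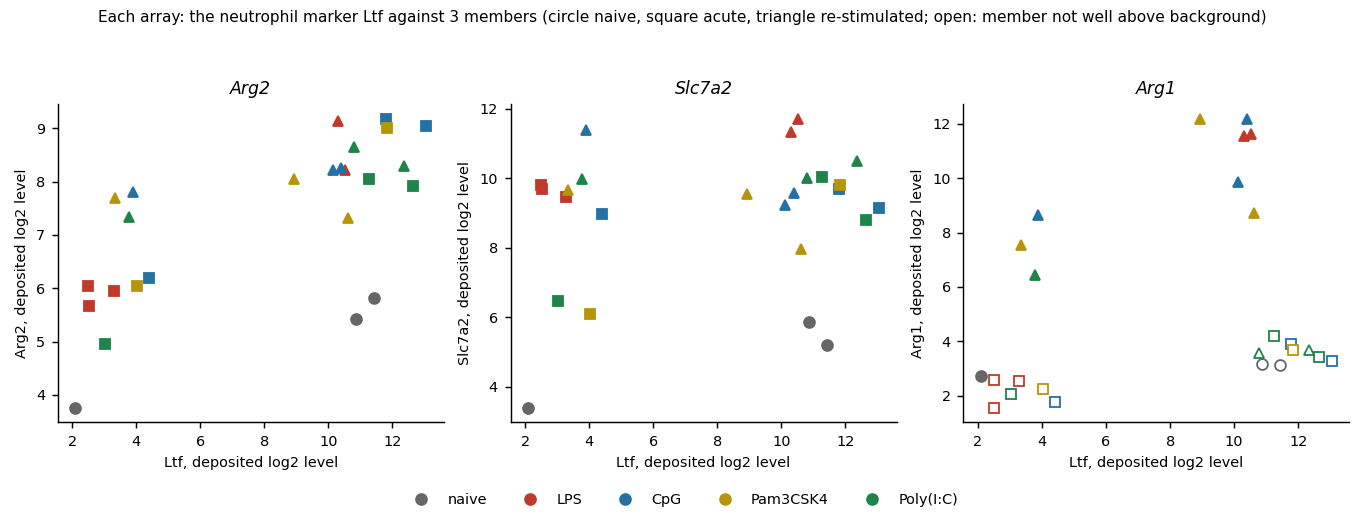
Log2 level of the neutrophil marker Ltf (x axis) against the log2 level of Arg2, Slc7a2 and Arg1 (y axes) on each of the 25 arrays, with circles for naïve, squares for acute and triangles for re-stimulated BMDM, colours for ligands, and open symbols where the member was not well above background. Acute arrays with low Ltf had Arg2 between 4.96 and 6.19, and re-stimulated arrays with low Ltf had Arg2 between 7.34 and 7.80. Arg1 was 6.43 to 8.65 on those re-stimulated arrays and not well above background on the acute ones.

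LPS re-stimulated BMDM gave Arg2 at 8.23 and 9.13, above every LPS acute array, a rise of 2.80 ± 0.31 (adjusted p = 0.00193, 6.94-fold). Re-stimulated arrays of the other ligands lay between 7.32 and 8.65, replicate 3 included, and overlapped their acute arrays, with changes of 1.12 for Poly(I:C), 0.16 for Pam3CSK4 and -0.04 for CpG that did not pass. Without CpG acute replicate 3 the change for CpG was -1.02 and was called lower (adjusted p = 0.0465). Above naïve BMDM, re-stimulated Arg2 was called for CpG (3.09, adjusted p = 0.0219) and Poly(I:C) (3.09, 0.0369). It missed the threshold for LPS (3.68, 0.0543) and Pam3CSK4 (2.69, 0.0509), and both passed without naïve replicate 3 (0.00611 and 0.011).

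Ass1, argininosuccinate synthase, which joins citrulline to aspartate in the rebuilding of arginine, rose in steps. Naïve arrays gave 10.89, 11.16 and 11.57 and LPS acute arrays 12.95, 13.08 and 13.15. CpG acute arrays gave 12.90, 12.69 and 12.51, Poly(I:C) acute 12.80, 12.76 and 12.05, and Pam3CSK4 acute 12.36 and 11.77, all above the naïve arrays. The first step was called for LPS (1.85 ± 0.23, adjusted p = 0.0032, 3.61-fold) and CpG (1.49 ± 0.24, 0.0284, with 0.0725 under the replicate block). It did not pass for Poly(I:C) (1.33 ± 0.29, 0.0582) or Pam3CSK4 (0.85 ± 0.32, 0.39).

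Re-stimulated BMDM gave Ass1 at 15.88, 16.12 and 14.02 for Poly(I:C), 14.94 and 15.27 for LPS, 14.88, 13.82 and 14.72 for Pam3CSK4, and 14.07, 14.46 and 14.01 for CpG. No re-stimulated array overlapped any acute array. The second step was 2.04 ± 0.21 for LPS (adjusted p = 0.00146, 4.12-fold), 1.48 ± 0.20 for CpG (0.0263), 2.80 ± 0.58 for Poly(I:C) (0.05, just under the threshold, with 0.0588 on the other probe) and 2.41 ± 0.40 for Pam3CSK4, which did not pass (0.161). The call of CpG was lost in 5 of 6 fits with 1 array left out, all but that without CpG acute replicate 3, and that of Poly(I:C) in 5 of 6, all but that without Poly(I:C) re-stimulated replicate 3.

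Against naïve BMDM, Ass1 was called higher in all 4 re-stimulated groups, by 4.13 for Poly(I:C) (adjusted p = 0.0161, 0.0511 with the replicate block), 3.90 for LPS (0.0101, 14.9-fold), 3.26 for Pam3CSK4 (0.015, 0.0546 with the block) and 2.97 for CpG (0.00409). In the order of group means the step from CpG re-stimulated down to LPS acute, 1.12 ± 0.20, was the only one between neighbours to pass (adjusted p = 0.00542). The main probe also matched a transcript listed in RefSeq as the pseudogene Gm5424, and the other probe listed Ass1 alone. The other probe gave the same calls in these comparisons except for Poly(I:C) re-stimulation, and it called LPS acute above Pam3CSK4 acute (1.47, adjusted p = 0.0241) where the main probe did not (1.00, 0.0592).

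Asl, argininosuccinate lyase, which completes that rebuilding, did not follow Ass1. Its level lay between 10.49 and 11.15 on all 25 arrays. Its changes in the 12 comparisons with naïve or acute cells ran from -0.26 to 0.43, and none was called.

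Irg1 encodes the enzyme that makes itaconate. Naïve arrays gave 8.09, 9.08 and 13.77, so naïve replicate 3 stood far above the others, and all 22 stimulated arrays lay between 16.47 and 18.03. The rise was 7.57 ± 1.40 for LPS (adjusted p = 0.0115), 7.50 ± 1.43 for CpG (0.0405, 0.0648 with the replicate block), 7.29 ± 1.45 for Poly(I:C) (0.0448, 0.0807 with the block) and 6.62 ± 1.78 for Pam3CSK4, which did not pass (0.298). Without naïve replicate 3 the rises were 9.30, 9.23, 9.01 and 8.35, and all 4 were called. Re-stimulated levels differed from acute ones by -0.24 for CpG, -0.17 for LPS, -0.17 for Poly(I:C) and -0.03 for Pam3CSK4, and none passed. Against naïve BMDM they were 7.40 higher for LPS (adjusted p = 0.0785), 7.26 for CpG (0.0278), 7.12 for Poly(I:C) (0.037, 0.0636 with the block) and 6.59 for Pam3CSK4 (0.0562). Without naïve replicate 3 these were 9.12, 8.99, 8.84 and 8.32, all called.

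Among the other direct comparisons of ligands in acute BMDM no member was called besides Nos2 in LPS against Poly(I:C), where 6.73% of probes were. The shares of probes called were 6.42% for LPS against CpG, 12.1% for LPS against Pam3CSK4, 0% for CpG against Pam3CSK4, 0.173% for CpG against Poly(I:C) and 2.42% for Pam3CSK4 against Poly(I:C). In re-stimulated BMDM the members called were Nos2 in LPS against Pam3CSK4 (0.909% of probes) and Arg1 in LPS against Poly(I:C) (0.957%). The remaining shares were 0.316% for LPS against CpG, 0% for CpG against Pam3CSK4, 2.47% for CpG against Poly(I:C) and 4.11% for Pam3CSK4 against Poly(I:C). Differences in the change on re-stimulation were called for 4.09% of probes in LPS against Poly(I:C), the pair with the Arg1 call. They were called for 7.24% in LPS against CpG, 8.2% in LPS against Pam3CSK4, 0.00378% in CpG against Pam3CSK4, 0.0396% in CpG against Poly(I:C) and 0.141% in Pam3CSK4 against Poly(I:C).

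Genes around the members were read from 3 lists. In each list, changes that involve the LPS acute arrays cannot be told apart from the slides, scan date and grid name of that group. The list of arginine transport and the polyamine and proline branch had 17 of 19 genes on the array. In LPS acute against re-stimulated BMDM, 2 of its 16 tested genes rose and 5 fell, where 34.2% of all probes were called, with a median change of -0.39 against -0.02 over all probes. Pycr1, which makes proline, rose by 2.87 ± 0.30 (adjusted p = 0.00157), and Sat1, which acetylates polyamines, fell by 1.29. Sat1 also fell by 1.46 between CpG acute and re-stimulated BMDM (adjusted p = 0.0475). Odc1, ornithine decarboxylase, which starts polyamine synthesis from ornithine, rose over naïve by 1.67 with acute CpG (adjusted p = 0.0444) and by 2.40 with Poly(I:C) re-stimulation (0.0206). With acute LPS 0 of 15 genes of this list rose and 2 fell, where 26.5% of all probes were called.

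The list of nitric oxide, tetrahydrobiopterin and the urea cycle had 14 genes. With acute LPS, against the same 26.5% of probes called, 3 of the 10 tested fell and 0 rose, with a median of -0.55 against -0.01 over all probes. Nosip, a protein that binds nitric oxide synthases, fell by 1.81 ± 0.20 (adjusted p = 0.00238) and was 2.29 higher in LPS re-stimulated than in acute BMDM (0.000855). Both differences involve the LPS acute arrays, with the limit given above. Between Poly(I:C) acute and re-stimulated BMDM, which shared slides, Nosip was called 1.12 higher. Ddah2, an enzyme of the metabolism of methylated arginines, fell by 2.07 ± 0.35 between Poly(I:C) acute and re-stimulated BMDM (0.0349) and by 2.35 between naïve and LPS re-stimulated BMDM (0.0287). Over naïve, 2 of 10 genes fell with CpG re-stimulation (13.1% of all probes called) and 3 of 10 with Poly(I:C) re-stimulation (9.03%), both led by Ddah2, which fell by 1.53 (0.0195) and 2.60 (0.0171). Nostrin was the 1 gene of 10 called over naïve with acute CpG (5.72% of all probes called) and with acute Poly(I:C) (6.03%). It fell by 1.40 (adjusted p = 0.0333) and 1.07 (0.0296).

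The list of the citric acid cycle and itaconate handling had 25 genes, all tested. In LPS acute against re-stimulated BMDM 4 rose and 1 fell, against 34.2% of all probes called, led by Pcx, pyruvate carboxylase, at 1.54 ± 0.42 (adjusted p = 0.0329), with a median of 0.21 against -0.02 over all probes. Aco1, the cytosolic aconitase, stood at 10.33 ± 1.07 (SD, n = 3) in Poly(I:C) acute BMDM and 9.51 ± 1.07 (SD, n = 3) after re-stimulation, against 6.10 ± 0.61 (SD, n = 3) in naïve BMDM. It rose by 4.23 ± 0.60 (adjusted p = 0.0194) and 3.41 ± 0.60 (0.0264), and the means of the other ligands' groups lay between 5.52 and 6.49. Idh1, the cytosolic isocitrate dehydrogenase, fell by 0.82 with acute LPS (0.0483), by 1.76 between naïve and Poly(I:C) re-stimulated BMDM and by 1.13 between Poly(I:C) acute and re-stimulated BMDM (0.0417). Mdh1 fell over naïve by 1.04 with LPS re-stimulation (adjusted p = 0.0422) and by 0.72 with CpG re-stimulation (0.032). Acute and re-stimulated Pam3CSK4 gave no call in these lists except, over naïve, Paox, polyamine oxidase, which fell by 1.46 after re-stimulation (0.0276). Paox was also called lower over naïve with acute LPS, by 0.85, acute CpG, by 1.45, and Poly(I:C) re-stimulation, by 0.99.

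**Figure D5:**
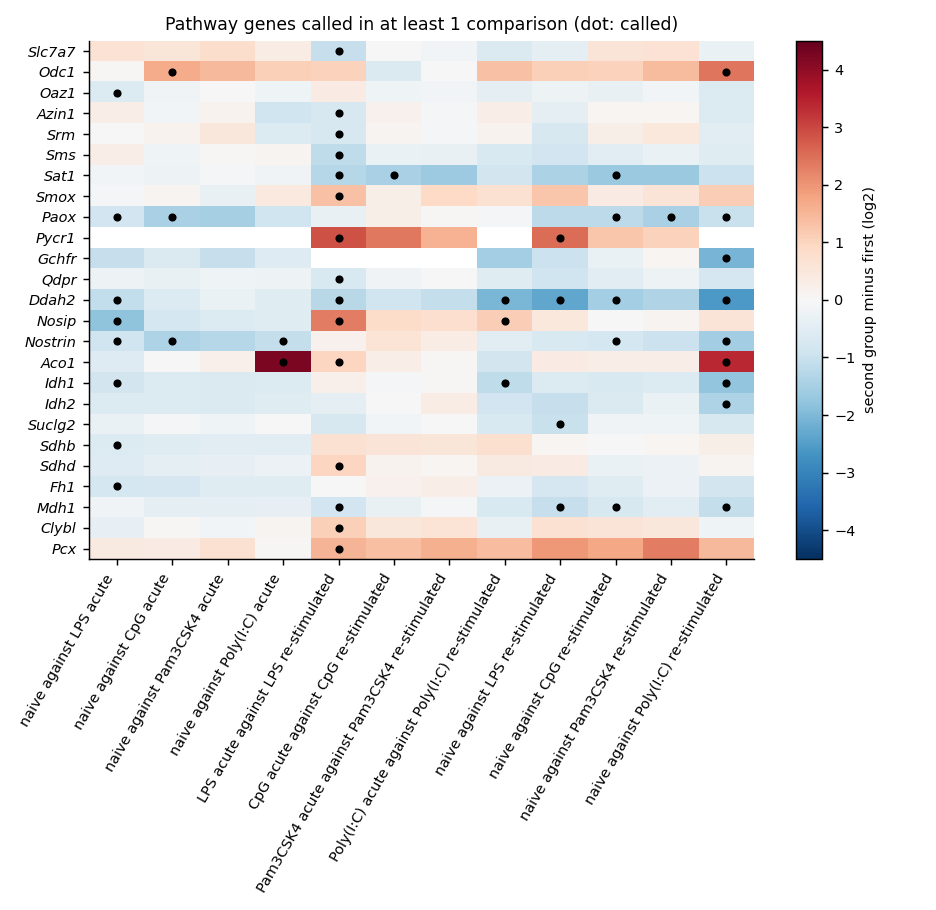
Log2 change (colour, as the second group minus the first) of the genes of the 3 surrounding lists that were called in at least 1 comparison (rows), in the 12 comparisons of naïve, acute and re-stimulated BMDM (columns), with a dot on each call and white where a gene was not tested. The strongest rise was that of Aco1 with Poly(I:C), 4.23 on first exposure.

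Over the 9 group means, the genes whose pattern ran most like that of each member were taken from 21468 probes by Pearson's r, as a description. For Nos2 they were Tmed5 (0.983), Nupr1 (0.973) and Gem (0.973), and for Slc7a2 Acsl1 (0.977), Sgms2 (0.976) and Rem1 (0.973). For Arg1 they were Fam162a (0.989), Rasgrf2 (0.985) and BC035044 (0.984), and for Arg2 Orai2 (0.988), Snapc3 (0.987) and Ptges (0.974). For Ass1 they were Tjp1 (0.989), Pdzd11 (0.984) and Cfb (0.983), and for Irg1 Skil (0.972), Birc3 (0.971) and Sar1a (0.970). For Gch1 they were Cflar (0.982), Rnf19b (0.977) and A130040M12Rik (0.969), and for Asl, which hardly varied, 1500004A13Rik (0.976), 1500011K16Rik (0.969) and Commd1 (0.967). Among the members, Irg1 and Gch1 ran most alike (r = 0.963), then Nos2 and Slc7a2 (0.877) and Nos2 and Gch1 (0.871), while Arg1 and Gch1 gave -0.00868. With 9 points chosen from so many probes, values this high describe likeness only.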

How the data were processed

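RNA of mouse BMDM was measured on 27 1-colour Agilent arrays. The authors deposited the scanner intensities of every array and log2 values for 25 of them, made with the background step of RMA and quantile normalization and compared with limma. These log2 values were used as deposited, and intensities served for background flags and alternatives. The authors left out replicate 2 of Pam3CSK4 acute and replicate 3 of LPS re-stimulated from these log2 values. Every column was mapped to a sample, with 0 left unused. The array count limits the precision.

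Each of 24 comparisons was fitted with limma 3.58.1 in R 4.3.3 (files read with version 1.17.8 of data.table), with Benjamini-Hochberg adjustment over all probes tested, and the change on re-stimulation was compared between ligands, in 6 pairs, in 1 fit of all 9 groups. Every adjusted p is from limma. Repeated spots were averaged. Gene names are those of the array, without genomic intervals and transcript identifiers. Promoters came from RefSeq (GRCm38.p6), which held 3 of 8 members. No protein sequence was used here, and 1 gene of a surrounding list is not reported here.

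Members, gene lists, tests and alternatives were chosen with earlier results of these data known. The named genes are the 8 members, the gene of each surrounding list with the largest called change in a comparison or the most raised and most lowered one, and the 3 genes most like each member. Genes of the surrounding lists are given for some of these comparisons only. Replicate numbers of the groups on slides 4 to 6 coincide with the slide. The deviations from the group mean of arrays with 1 number correlated in each of 3 pairs for naïve against CpG acute (0.282 to 0.362), Poly(I:C) acute (0.357 to 0.421), CpG re-stimulated (0.117 to 0.291), Pam3CSK4 re-stimulated (0.198 to 0.274) and Poly(I:C) re-stimulated (0.176 to 0.258), and for acute against re-stimulated CpG (0.289 to 0.482) and Poly(I:C) (0.297 to 0.468), so the replicate number was added as a block in an alternative fit. Fits were tested on simulated data with independent noise and no slide effect. The fits of 2 groups called 49 to 59% of true changes of 2 on the log2 scale and 88 to 94% of changes of 4. The contrast of LPS against Poly(I:C) called 87% of changes of 4. Far fewer probes were changed there than were called in the same comparisons of the data, which makes the adjusted threshold stricter. The noise used 1 spread per probe pooled over the groups, and that contrast was run on all 55681 probes without the filter. These shares therefore do not give the recovery of the real fits.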

Additional observations from a re-analysis of the deposited data

Results flagged for a closer look

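The change of Arg1 on re-stimulation differed between LPS and Poly(I:C), at -8.02 on the log2 scale as Poly(I:C) minus LPS (limma, adjusted p = 0.0111 in the fit of all 9 groups), the test being of the difference itself. Arg1 was above background on no acute array of either ligand and on 1 of 3 Poly(I:C) re-stimulated arrays, so this is the measured difference and no exact size.

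Some members also stood above the naïve range on the arrays without deposited values, when the log2 values of all 27 arrays were remade. On LPS re-stimulated replicate 3, where 92.4% of spots were well above background, Nos2 was 12.79 (naïve 7.25 to 8.05), Arg1 7.37 (naïve 3.00 to 3.45), Ass1 13.93 (naïve 10.95 to 11.61), Slc7a2 11.23 (naïve 3.65 to 6.11), Irg1 17.12 (naïve 8.25 to 13.75) and Gch1 13.82 (naïve 11.87 to 12.84). Arg2 was 3.79 and Asl 10.702, below their naïve ranges of 4.01 to 6.06 and 10.88 to 11.02. Arg1 on this array lay below the 11.58 and 11.66 of the other LPS re-stimulated arrays. On Pam3CSK4 acute replicate 2, where 99.9% were, Nos2 was 12.13, Arg1 4.18, Irg1 17.58 and Gch1 13.15, each above the same naïve ranges. Slc7a2 was 4.94, inside its naïve range, and Arg2 at 3.57, Ass1 at 10.63 and Asl at 5.24 lay below theirs. On this array 22.6% of spots were flagged as non-uniform, against at most 0.349% on any other array, which limits all its levels. In the deposited values Arg1 also reached 4.18 on a Poly(I:C) acute array without clearing background.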

How the results depend on the processing

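The calls of the members numbered 13 for naïve against acute, 7 for acute against re-stimulated, 22 for naïve against re-stimulated, 1 and 2 between ligands in acute and in re-stimulated BMDM, and 1 for the differences in the change on re-stimulation. Single values were counted without the differences in the change on re-stimulation. Of 2160 such values under the other alternatives, 2007 kept their side of the threshold, and 76 of these were uncalled values that changed sign. Of the rest, 42 fell below the threshold and 111 passed it, and 0 called values changed sign. Leaving out 1 array, 123 of 1004 fell below it and 25 passed. The counts then ran from 6 to 15, 5 to 8, 8 to 27, 0 to 5, 0 to 7 and 0 to 4, in the order above. Between ligands, acute and re-stimulated, normexp background correction gave 2 and 4 calls, median scaling 2 and 6, and the mean of a gene's probes 2 and 1. Between ligands after re-stimulation, no filter gave 0, a filter on every array 4, the fit of all 9 groups 5 and the slide as a random block 6, which gave 22 for naïve against acute. All 27 arrays gave 4 for acute against re-stimulated, 0 between re-stimulated ligands and 0 for the differences in change. Without slide 6, added after the data were seen, there were 22 for naïve against acute, 5 and 9 between ligands and 14 for the differences in change. Pam3CSK4 acute was then 1 array assumed to vary like the other group, and 5 of the 22 calls and that of Arg2 in LPS against Pam3CSK4 acute rest on it. The cause was not tested. With the replicate number as a block the count between acute ligands was 0, as Nos2 in LPS against Poly(I:C) had an adjusted p of 0.0668, but the numbers pair no LPS acute arrays, which lay on other slides (r from -0.0993 to 0.0385 for this pair of groups). Other block values beside the results in the text are those that changed a call. For naïve against LPS re-stimulated, where 2 pairs do not settle the pairing, the block gave calls for Arg2 (3.06, adjusted p = 0.0135) and Irg1 (9.12, 0.00996). It also leaves out naïve replicate 3, without which both were called with no block (0.00611 and 0.000967). Under median scaling the median change of all probes reached 0.78 (naïve against CpG re-stimulated, 0.01 in the deposited values), and changes are read relative to it. Groups of 2 arrays and dim probes limit Arg1 and the Pam3CSK4 comparisons.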
